A study of Mus musculus with 16 samples.

Results

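Livers of 8 mice with a liver-specific knockout of the glucagon receptor gene Gcgr (LKO) were compared with livers of 8 Cre-negative mice (CRE-) to describe the genotype effect that both sexes share. Members were chosen by their genotype and sex labels alone, and all 16 of the 16 samples of the series entered the comparison, 4 male and 4 female livers of each genotype. Every mouse was on the C57BL/6J strain, aged 20 to 22 months, and carried floxed Gcgr alleles. LKO mice also carried Cre recombinase under the Albumin promoter, which is active in hepatocytes, while CRE- mice had the floxed alleles without Cre. Deletion was thus aimed at hepatocytes, and other cells of the liver were not targeted. The libraries are of bulk liver RNA, 1 per mouse, so each value below is a mean over all cells of the sample.

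Glucagon is released by pancreatic alpha cells when glucose is low or amino acids are high, and binds a receptor on hepatocytes that couples through the stimulatory G protein to adenylyl cyclase, cAMP and protein kinase A. In the liver this pathway is known for driving gluconeogenesis, glycogen breakdown, amino acid uptake and ureagenesis, and for restraining lipid synthesis. The receptor is also 1 arm of a loop between liver and alpha cells, in which amino acids that the liver does not clear stimulate glucagon release.

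Between 39577958 and 56488920 reads were counted on genes in CRE- livers (median 46297887.5) and between 33268424 and 48265539 in LKO livers (median 38259852.5). The CRE- libraries were thus deeper on the whole, with ranges that overlap, and the part of depth in the results was not tested. Levels are given as CPM, a gene's count scaled by the total of its library, with totals adjusted by TMM. They are not corrected for transcript length, so they compare livers and not genes. An additive model with terms for sex and genotype was fitted to all 16 libraries, and log2 fold changes are LKO minus CRE-, so that positive values are higher in LKO livers. Genes were called at a threshold of 0.05 on the p of edgeR's quasi-likelihood test after adjustment by Benjamini and Hochberg's method.

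Gcgr itself, on chromosome 11 of GRCm39 from 120420011 to 120429815, was at 190, 193, 127 and 190 CPM in male CRE- livers 1 to 4 and at 117, 136, 130 and 160 CPM in male LKO livers 1 to 4. It was at 162, 208, 201 and 180 CPM in female CRE- livers and at 48.8, 132, 119 and 93.6 CPM in female LKO livers. Male CRE- 3 was low among the controls, and 4 of the 8 LKO livers lay below the lowest control, so the genotypes overlapped. The common log2 fold change was -0.65 (SE 0.18) and was not called (edgeR adjusted p = 0.0835). Within the sexes it was -0.37 in males and -0.93 in females. A call was made when male CRE- 3 was left out, at -0.73 (edgeR adjusted p = 0.0443), and when female LKO 1 was left out, at -0.52. Reads were counted over all exons of Gcgr and from all cells of the sample, so the count does not measure the deletion itself.

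All 18 hepatocyte markers had reads, and Alb was the most abundant, as a sample labelled liver should have. Their summed level was 98934 to 189360 CPM in CRE- livers (median 151100) and 93219 to 139520 CPM in LKO livers (median 115820). No marker of this list was called, 1 was called without female LKO 4, and their median log2 fold change was -0.24. Alb, the serum albumin gene, was at 51070 to 105500 CPM (median 90020) in controls and 41687 to 71962 CPM (median 54784) in LKO livers, with a log2 fold change of -0.51 (SE 0.18, edgeR adjusted p = 0.178). In bulk tissue, fewer cells of a type and less RNA per cell cannot be told apart, here and in all that follows.

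Of 16742 genes tested, 339 were called between the genotypes (2.02%), 142 of them higher in LKO livers (0.848%) and 197 lower (1.18%). The higher genes moved by a median log2 fold change of 1.54 and the lower genes by -1.05, against 0.02 over all genes tested. Among the called genes 109 were higher and 105 lower by at least 1 on the log2 scale. All 142 higher and all 197 lower genes had the same sign within each sex, a direction that choosing them on the pooled test partly fixes. In 61 of the higher genes the LKO and CRE- values did not overlap in either sex, where 69 genes tested had that pattern (0.412%), and in 88 of the lower genes, where 106 had it (0.633%). All 8 LKO livers lay above all 8 controls in 28 of the called genes and below them in 51. The share of all genes tested with that pattern is not given here, and choosing genes on the pooled test partly fixes it. The number called depended on single livers, from 209 without female CRE- 2, 213 without female LKO 3 and 225 without female CRE- 1 to 355 without female LKO 1. DESeq2's Wald test called 812 genes, among them 337 of the 339.

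What LKO livers of both sexes shared most plainly was a higher level of many, not all, ATF4 target and integrated stress response genes. With it went a lower level of many fatty acid synthesis genes. Asns, Psat1 and Fgf21 are examples of the first group and Scd1, Acacb and Acss2 of the second. Genes that use or clear amino acids were lower in part. In the account that follows, lists of genes with a known role are each described by the number of members called and by the median log2 fold change of all members tested. Each count stands beside the 2.02% of all genes tested that were called, 0.848% higher and 1.18% lower.

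The list of ATF4 targets and integrated stress response genes had 17 of 35 members called higher and 0 lower, against 0.848% and 1.18% of all genes tested. ATF4 is the transcription factor translated when amino acids are short or the endoplasmic reticulum is stressed, and it drives amino acid synthesis and uptake. The median log2 fold change over the list was 0.94, with 1.06 in males and 1.15 in females, and 32 of the 35 members were above 0. Summed over the list, CRE- livers held 1594 to 2286 CPM (median 1951) and LKO livers 1422 to 2886 CPM (median 2387), with overlap, and female LKO 1 was the lowest of all. In males the sums were apart, at 1594 to 2082 CPM in CRE- and 2330 to 2886 CPM in LKO livers. In females they overlapped, at 1872 to 2286 CPM and 1422 to 2443 CPM, so the summed level was not plainly higher there. Such a sum weighs abundant members most, Atf5 above all, and says little on members of low level such as Asns. The called count was 12 without male LKO 1, its lowest value when any 1 library was left out. Males fitted alone gave 12 called members, and females alone 4.

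Asns makes asparagine from aspartate with glutamine as the nitrogen donor. Its gene lies on the minus strand of chromosome 6 from 7675169 to 7693209. The 8 controls ranged from 0.214 to 1.91 CPM (median 0.479), and the 8 LKO livers from 7.58 to 87.9 CPM (median 25.6). Even the lowest LKO liver, female LKO 4, was above the highest control, female CRE- 1. This is a log2 fold change of 5.40 (SE 0.52, edgeR adjusted p = 3.76e-05), with 6.32 in males and 4.50 in females, and it was 6.03 without female CRE- 1. Male LKO livers were at 87.9, 44.0, 29.5 and 26.4 CPM and female LKO livers at 20.7, 12.9, 24.8 and 7.58 CPM. Hence male LKO 1 was the highest of all.

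Serine synthesis from glycolytic intermediates starts with Phgdh, its first committed enzyme, followed by the aminotransferase Psat1. Psat1 was at 0.311 to 2.14 CPM in controls (median 0.848) and 7.35 to 54.6 CPM in LKO livers (median 18.9), a log2 fold change of 4.35 (SE 0.47, edgeR adjusted p = 9.65e-05). For Phgdh the controls held 0.535 to 1.97 CPM (median 1.13) and the LKO livers 3.88 to 33 CPM (median 9.11), a log2 fold change of 3.23 (SE 0.43, edgeR adjusted p = 0.000615). Both genes separated all 8 LKO livers from all 8 controls. Of the mitochondrial folate enzymes, Mthfd2 and Aldh1l2 were called higher, and Shmt2, Mthfd1l and Mthfd2l were not called. Mthfd2 went from 1.01 to 2.57 CPM (median 1.57) in controls to 3.24 to 18.5 CPM (median 7.05) in LKO livers, with a log2 fold change of 2.34 (SE 0.33). Aldh1l2, which oxidizes formyl-tetrahydrofolate in mitochondria, was at 0.0535 to 0.520 CPM (median 0.417) in controls and 0.289 to 10.3 CPM (median 2.37) in LKO livers. There 7 of the 8 LKO livers were above the highest control, all but female LKO 4, and the log2 fold change was 2.95 (SE 0.50, edgeR adjusted p = 0.00411).

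Cytosolic folate enzymes went the other way. Aldh1l1, the cytosolic counterpart of Aldh1l2, fell from 1200 to 2176 CPM (median 1621) in controls to 634 to 1006 CPM (median 771) in LKO livers. No LKO liver reached the lowest control, and the log2 fold change was -0.94 (SE 0.14, edgeR adjusted p = 0.00135), with -0.82 in males and -1.06 in females. In the list of serine synthesis and the folate cycle, 4 of 17 members were called higher and 3 lower, and the median log2 fold change was 0.10. The other called members, picked out after their values were seen, were Shmt1 and Mthfd1, which encode cytosolic enzymes and were lower.

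Fgf21, a secreted hormone of the fasting and amino acid restricted liver, lies on the minus strand of chromosome 7 from 45263314 to 45264914. Male CRE- livers 1 to 4 were at 1.30, 1.31, 1.46 and 2.49 CPM and male LKO livers 1 to 4 at 113, 43.9, 43.3 and 43.7 CPM. In females the controls were at 1.89, 1.87, 2.39 and 1.44 CPM and the LKO livers at 8.13, 24.3, 90.9 and 1.5 CPM. Female LKO 4 was within the control range, and the other 7 LKO livers were above every control. The common log2 fold change was 4.62 (SE 0.62, edgeR adjusted p = 0.000615) and was 4.04 without female LKO 3.

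Among other members of the ATF4 list, Adm2 was near the limit of counting in controls. Adm2, which encodes the peptide hormone intermedin, had 2 reads over all 8 controls and 528 over the 8 LKO livers, a ratio of 279 with a 95% interval of 77.0 to 2310 from counting error alone. Slc7a11, the cystine/glutamate exchanger, was at 0 to 0.527 CPM in controls (median 0.151) and 0.348 to 18.3 CPM in LKO livers (median 0.627). Male LKO 1 held the value of 18.3 CPM, with the others at most at 1.54 CPM among the male LKO livers. Its log2 fold change of 3.95 (SE 0.77, edgeR adjusted p = 0.0114) was 2.51 and not called without male LKO 1 (adjusted p = 0.0784). Pck2, mitochondrial phosphoenolpyruvate carboxykinase, was at 4.15 to 8.71 CPM (median 5.79) in controls and 8.53 to 29.1 CPM (median 12.5) in LKO livers, a log2 fold change of 1.16 (SE 0.23, edgeR adjusted p = 0.0111). All LKO livers but 1 exceeded the highest control for Pck2. Further members called higher, named after their values were seen, were the pseudokinase gene Trib3, the glutathione-degrading Chac1, the stress sensor Sesn2, the proline synthesis enzymes Aldh18a1 and Pycr1, the stress protein Nupr1 and the cationic amino acid transporter Slc7a1. The gene Atf4 itself was at a mean of 81.9 CPM in controls and 110.1 CPM in LKO livers and was not called (edgeR adjusted p = 0.339).

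Endoplasmic reticulum chaperones and unfolded protein response genes were examined for comparison. None of the 20 members tested was called, their median log2 fold change was -0.07, and leaving out male LKO 3 or female LKO 4 gave 1 call each. Of 20 cytosolic aminoacyl-tRNA synthetases, which charge tRNAs with amino acids and of which several are ATF4 targets, 1 was called higher, and the median was 0.18. That gene, Gars1, was at 38.9 to 58.5 CPM (median 47.4) in controls and 50.7 to 90.4 CPM (median 67.0) in LKO livers, with a log2 fold change of 0.53 (SE 0.13, edgeR adjusted p = 0.0372). The Gars1 call was lost in 11 of the 16 fits without 1 library (highest edgeR adjusted p = 0.0861, without female CRE- 2), and 2 synthetases were called without female CRE- 4. Gars1 was also not called in a fit with the replicate number as a block. Aars1, the alanyl-tRNA synthetase gene, was at a median of 233 CPM in controls and 259 CPM in LKO livers. A share of 20.0% of the exon bases of Aars1 overlaps Exosc6, so some of its reads may belong there.

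**Figure D1:**
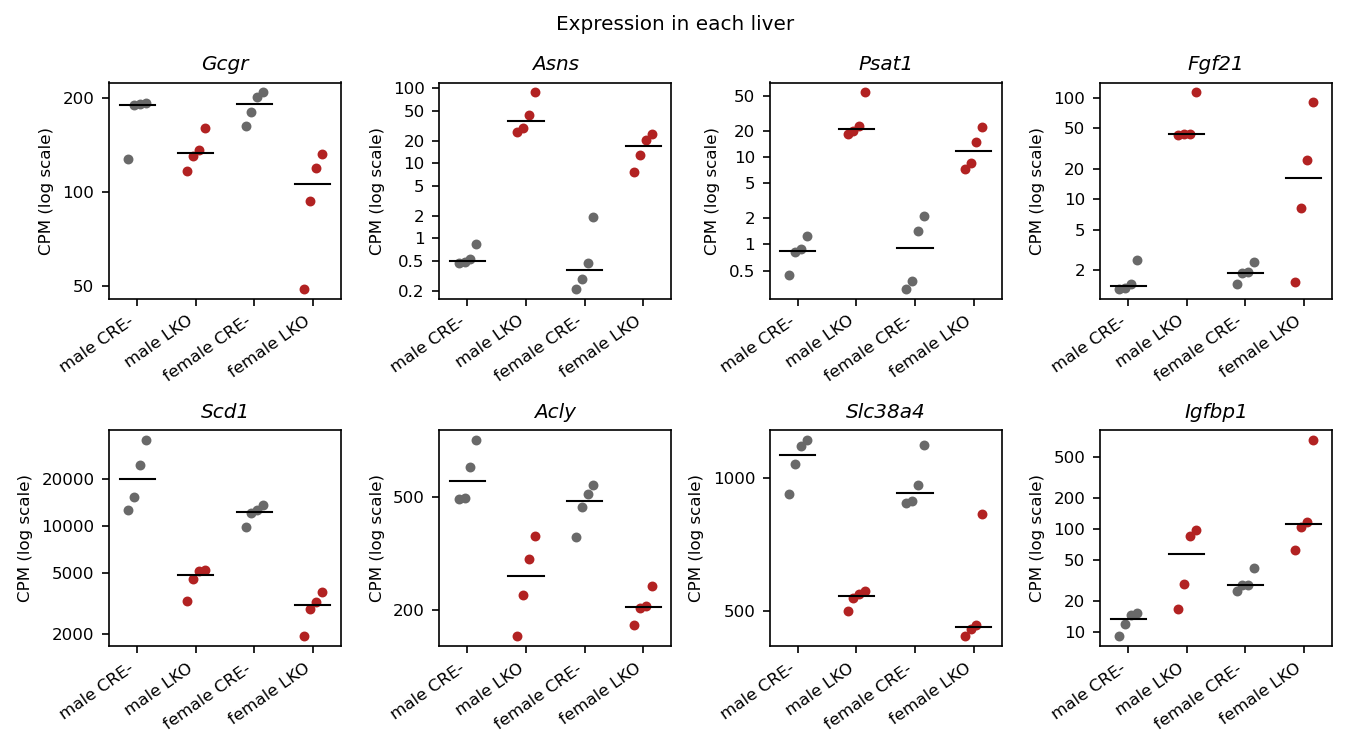
CPM on a log scale in each of the 16 livers, grouped by sex and genotype, for Gcgr and 7 genes called between the genotypes; each point is a liver and each bar the median of its 4 livers. Asns and Psat1 are higher and Scd1 and Slc38a4 lower in each of the 8 LKO livers than in any control, whereas 4 of the 8 LKO livers are below the lowest control for Gcgr.

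The C/EBP-ATF composite element is the sequence that ATF4 and its partners are known to bind, and it was searched in promoters as a description of what the called genes share. The letters TGATGNAA were looked for on both strands in the 250 bases before the gene start, in RefSeq promoters of GRCm38.p6 that could be matched by symbol for 12447 of the 16742 genes tested. A match was found in 2.67% of these promoters, in 9 of 110 promoters of genes called higher (8.18%) and in 6 of 149 of genes called lower (4.03%). The full cAMP response element, TGACGTCA, was found in 2.68% of all promoters, in 2 of 110 of the higher genes (1.82%) and in 4 of 149 of the lower genes (2.68%). The sterol response element, TCACNCCAC, was found in 1.27% of all, in 0 of 110 of the higher genes and in 8 of 149 of the lower genes (5.37%). Matches of the cAMP and the composite element shared a base in 0 promoters, those of the cAMP and sterol elements in 2, and those of the composite and sterol elements in 1. Stretches with the match in capitals are given for Asns, Fgf21, Pck2 and Slc7a11, since they show the letters that these genes have in common. Called genes named after their values were seen, such as Trib3 and Chac1, were not searched for stretches. Nor were Slc23a1, Pstpip2, Arhgap26 and Gm15337, so a missing stretch for these genes does not mean that a match is absent. A match is a description of letters and not of binding. The Asns stretch is on the minus strand at chr6:7693210-7693252, that of Fgf21 on the minus strand at chr7:45615602-45615649, and that of Pck2 on the plus strand at chr14:55540143-55540190. Slc7a11 had a pair of matches on the minus strand, at chr3:50443652-50443699 and chr3:50443633-50443680.
Asns: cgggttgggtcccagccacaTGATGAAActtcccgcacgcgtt
Fgf21: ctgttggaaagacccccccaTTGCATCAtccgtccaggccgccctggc
Pck2: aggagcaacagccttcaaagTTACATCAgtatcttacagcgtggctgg
Slc7a11, far match: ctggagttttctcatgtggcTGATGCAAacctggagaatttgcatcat
Slc7a11, near match: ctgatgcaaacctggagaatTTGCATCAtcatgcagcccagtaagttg

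De novo lipogenesis, the making of fatty acids from acetyl-CoA, had 12 of 21 members called lower and 0 higher. The median log2 fold change was -1.14, with -1.06 in males and -1.18 in females, and 20 of the 21 members were below 0. No single library moved the called count beyond 11 to 12. Summed over the list, CRE- livers held 17284 to 47976 CPM (median 22542) and LKO livers 4705 to 12189 CPM (median 7661), without overlap.

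Scd1, the delta-9 desaturase that makes oleate, had the most reads of that list. Its gene lies on the minus strand of chromosome 19 from 44382889 to 44396148. It fell from 9839 to 36017 CPM (median 13181) in controls to 1935 to 5167 CPM (median 3521) in LKO livers. Every LKO liver was below every control, and the highest control was male CRE- 3. In log2 terms the change was -2.16 (SE 0.22, edgeR adjusted p = 6.71e-05), a level 4.47-fold lower, with -2.29 in males and -2.03 in females.

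Among the enzymes that supply and use acetyl-CoA, Acss2, Acly, Fasn and Acacb were called lower too. Acss2, which activates acetate, was at 221 to 750 CPM in controls (median 441) and 88.7 to 224 CPM in LKO livers (median 148), a log2 fold change of -1.49 (SE 0.22, edgeR adjusted p = 0.00143). Acly, which splits citrate into acetyl-CoA, was at 361 to 797 CPM (median 504) against 161 to 364 CPM (median 217), a log2 fold change of -1.20 (SE 0.17, edgeR adjusted p = 0.00112). For each, a single LKO liver reached the control range and the other 7 were below it. For Acly that liver was male LKO 2, which was below all male controls. Fasn, the synthase that builds palmitate, went from 1043 to 3326 CPM (median 1500) to 383 to 1303 CPM (median 648), with a log2 fold change of -1.32 (SE 0.22, edgeR adjusted p = 0.00366). A single LKO liver, male LKO 2, was within the control range, though below all male controls. The gene lies on chromosome 11 from 120696784 to 120715992, near Gcgr. Acacb, the acetyl-CoA carboxylase whose malonyl-CoA restrains entry of fatty acids into mitochondria, was at 122 to 426 CPM in controls (median 198) and at 55.8 to 96.4 CPM in LKO livers (median 70.9). The groups did not overlap for Acacb, and its log2 fold change was -1.62 (SE 0.21, edgeR adjusted p = 0.00045). The cytosolic carboxylase Acaca, the rate-limiting enzyme of the pathway, was not called. Its controls were at 120 to 529 CPM (median 155) and its LKO livers at 92.8 to 211 CPM (median 136), with a log2 fold change of -0.49 (SE 0.23, edgeR adjusted p = 0.368). The Acaca value was -0.19 without male CRE- 3, the highest control.

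Desaturation and elongation of polyunsaturated fatty acids involve Fads1, the delta-5 desaturase. Controls held 473 to 981 CPM of Fads1 (median 670) and LKO livers 273 to 425 CPM (median 363), so that no LKO liver reached a control. The log2 fold change was -0.92 (SE 0.14, edgeR adjusted p = 0.00135), with -0.85 in males and -0.99 in females. The remaining called members, named after their values were seen, were the regulator Srebf1, the elongases Elovl5 and Elovl6, the delta-6 desaturase Fads2, the acyltransferase Gpam and the lipid droplet protein gene Pnpla3. Srebf1 was at a mean of 567 CPM in controls and 232 CPM in LKO livers, a log2 fold change of -1.30 (edgeR adjusted p = 0.00863).

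Cholesterol synthesis and uptake shares the SREBP family of regulators with lipogenesis, and 4 of its 25 members were called lower and 0 higher. Its median log2 fold change was -0.44, and 24 of the 25 members were below 0. The called count reached 6 without female LKO 4 and was at least 3 without any other library. Insig1, which retains SREBPs in the endoplasmic reticulum, was at 341 to 752 CPM (median 473) in controls and 175 to 436 CPM (median 211) in LKO livers, a log2 fold change of -1.04 (SE 0.18, edgeR adjusted p = 0.00411). Sc5d, a late enzyme of the pathway, was at 583 to 965 CPM (median 753) against 174 to 515 CPM (median 414), with a log2 fold change of -1.01 (SE 0.19, edgeR adjusted p = 0.00879). No LKO liver reached the controls for Sc5d, and 1 did so for Insig1. Dhcr7, which catalyses the last step to cholesterol, had -0.84 (SE 0.19, edgeR adjusted p = 0.0257) and lost its call in 5 of the 16 fits without 1 library (highest edgeR adjusted p = 0.0675, without female CRE- 4). Female LKO 4 held the highest LKO value of Insig1.

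Breakdown and storage of fat were described by a pair of further lists. Among 30 genes of fatty acid oxidation and ketogenesis 0 were called, with a median log2 fold change of -0.06. Cpt1a, which lets fatty acids into mitochondria, was at 191 to 456 CPM in controls (median 277) and 152 to 339 CPM in LKO livers (median 267). Among 20 genes of lipid droplets and triglyceride 0 were called, with a median of -0.12. Pnpla2, the triglyceride lipase, was at 40.7 to 90.5 CPM (median 68.8) in controls and 67.9 to 137 CPM (median 101) in LKO livers, a log2 fold change of 0.62 (SE 0.18, edgeR adjusted p = 0.103). Plin2, a coat protein of lipid droplets, had medians of 490 CPM and 418 CPM, and 9.6% of its exon bases overlap another gene.

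The list of amino acid catabolism had 5 of 54 members called lower and 1 higher, and 51 of the 54 were below 0. The median log2 fold change was -0.54, with -0.24 in males and -0.76 in females. The called count was 11 without female LKO 2 and 10 without male LKO 3, and it was 3 without female CRE- 2, female CRE- 3 or female LKO 3. Afmid, of tryptophan breakdown, was at 124 to 207 CPM in controls (median 156) and 66.3 to 122 CPM in LKO livers (median 104), with no overlap and a log2 fold change of -0.68 (SE 0.14, edgeR adjusted p = 0.0196). Agxt, which removes glyoxylate with alanine as the amino donor, was at 142 to 520 CPM (median 303) against 72.4 to 315 CPM (median 108). Its log2 fold change was -1.13 (SE 0.24, edgeR adjusted p = 0.0198), and 5 of the 8 LKO livers lay below all controls. Histidine breakdown was represented by Uroc1, at -0.87 (SE 0.19, edgeR adjusted p = 0.0256), and by Ftcd, at -0.86 (SE 0.20, edgeR adjusted p = 0.0329). The Uroc1 call was lost in 3 of the 16 fits without 1 library (highest edgeR adjusted p = 0.0554, without female LKO 3), and the Ftcd call in 9 (highest 0.0687, without female CRE- 3). The proline pathway enzyme Aldh4a1, named after its value was seen, was also called lower. Csad, which makes the taurine precursor hypotaurine from cysteine sulfinate, was the member called higher. Its controls were at 141 to 443 CPM (median 347) and its LKO livers at 418 to 1102 CPM (median 595), a log2 fold change of 1.03 (SE 0.21, edgeR adjusted p = 0.0161), and 7 of the 8 LKO livers exceeded all controls. Csad was not called without both libraries of the highest share in the 10 most abundant genes, male CRE- 3 and female CRE- 4, and Agxt was not called without the sex covariate.

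The urea cycle had 1 of 8 members called lower and 0 higher, all 8 were below 0, and the median log2 fold change was -0.68. Slc25a15, which carries ornithine into mitochondria, was at 172 to 305 CPM in controls (median 269) and 115 to 210 CPM in LKO livers (median 146), a log2 fold change of -0.72 (SE 0.16, edgeR adjusted p = 0.0229). The call was lost without male CRE- 2, without female CRE- 2 (edgeR adjusted p = 0.0528) and without female LKO 3. Cps1, the rate-limiting enzyme, was not called, with 1355 to 3090 CPM in controls (median 2473), 787 to 2366 CPM in LKO livers (median 1390) and a log2 fold change of -0.74 (SE 0.22, edgeR adjusted p = 0.101). Ass1 was at 1426 to 4514 CPM (median 3050) against 676 to 3287 CPM (median 1063), with a log2 fold change of -1.01 (SE 0.28, edgeR adjusted p = 0.0729). Ass1 was called without male LKO 3 and without female LKO 2 (edgeR adjusted p = 0.0178), the LKO livers of highest level in each sex. Without female LKO 2 the list had 3 called members, and 2 without male LKO 3.

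Amino acid transporters moved in both directions, with 4 of 22 members called higher and 2 lower and a median log2 fold change of 0.13. The hepatic system A transporter Slc38a4 was at 880 to 1218 CPM in controls (median 1018) and 439 to 828 CPM in LKO livers (median 518). All 8 LKO livers were below all controls, the highest being female LKO 2. The log2 fold change was -0.94 (SE 0.15, edgeR adjusted p = 0.00245). Slc38a3, a glutamine transporter of system N, was at 1061 to 2187 CPM (median 1902) against 519 to 1542 CPM (median 905), a log2 fold change of -0.88 (SE 0.21, edgeR adjusted p = 0.0372). It lost its call in 11 of 16 fits without 1 library (highest edgeR adjusted p = 0.0803, without female CRE- 3). On the other side, Slc7a5, the light chain of the large neutral amino acid transporter, was at 1.14 to 6.19 CPM in controls (median 3.55) and 5.04 to 22.8 CPM in LKO livers (median 7.13). Slc3a2, the heavy chain that Slc7a5 and Slc7a11 share, was at 25.1 to 74.1 CPM (median 48.4) against 59.2 to 149 CPM (median 73.9). These genes had log2 fold changes of 1.30 (SE 0.31, edgeR adjusted p = 0.0376) and 0.85 (SE 0.21, edgeR adjusted p = 0.0440). The Slc7a5 call was lost in 7 of the 16 fits without 1 library (highest edgeR adjusted p = 0.0872, without male LKO 1) and the Slc3a2 call in 12 (highest 0.0931, without male CRE- 2). The list had 1 called member without male LKO 1, 2 without male CRE- 2 or male LKO 4, and 3 without any of male CRE- 1 and 4, female CRE- 1 to 4, and female LKO 1 and 3. It had 7 without female LKO 4.

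The glucagon receptor and cAMP signalling list had 1 of 35 members called, lower, and a median log2 fold change of -0.03. That is 2.86% of the list, near the 2.02% of all genes tested. The called gene was Pde4b, a phosphodiesterase that degrades cAMP. It was at 14.7 to 28.6 CPM in controls (median 20.9) and 4.75 to 25.3 CPM in LKO livers (median 6.97), with 6 of the 8 LKO livers below all controls and a log2 fold change of -1.20 (SE 0.29, edgeR adjusted p = 0.0372). It was -2.04 in males and -0.37 in females, and the call was lost in 12 of 16 fits without 1 library (highest edgeR adjusted p = 0.0954, without male LKO 1). Pde4b was also not called in a fit with the replicate number as a block. The list had 2 calls without female LKO 1. Gnas, the stimulatory G protein, had medians of 479 CPM in controls and 500 CPM in LKO livers, and Creb3l3, a hepatic factor of the CREB family, 227 CPM and 229 CPM.

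Of 25 transcripts known to be induced by glucagon, 1 was called higher and 1 lower, and the median log2 fold change was -0.26. The lower gene was Slc38a4, described above. The higher gene was Igfbp1, a secreted binding protein of insulin-like growth factors that insulin represses. Its levels in male CRE- livers were 9.01, 14.5, 12 and 15.3 CPM and in male LKO livers 84.9, 16.4, 96.8 and 28.7 CPM. Female CRE- livers were at 41.2, 28.5, 25.0 and 28.5 CPM and female LKO livers at 117, 62.8, 104 and 728 CPM. Within each sex all LKO livers were above all controls, and female LKO 4 was far above the rest. LKO minus CRE- was 2.60 on the log2 scale (SE 0.49, edgeR adjusted p = 0.00893), and 1.91 without female LKO 4. The called count of this list was 4 without female LKO 2.

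Gluconeogenesis had 1 of 16 members called higher, Pck2 as given above, 0 lower and a median log2 fold change of -0.36. Pck1, the cytosolic carboxykinase that limits the rate of the pathway, was at 2222, 1791, 1465 and 1603 CPM in male CRE- livers and 748, 244, 1112 and 403 CPM in male LKO livers. In females the controls were at 691, 738, 1300 and 443 CPM and the LKO livers at 826, 2765, 760 and 815 CPM. Thus the males were apart and the females overlapped. The common log2 fold change was -0.40 (SE 0.45, edgeR adjusted p = 0.785), with -1.50 in males and 0.70 in females, and -0.79 without female LKO 2. Fbp1, which releases fructose 6-phosphate, had medians of 1028 CPM in controls and 754 CPM in LKO livers. Without female LKO 2 or without female LKO 4 the list had 2 called members.

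Glycolysis and glycogen had 0 of 30 members called and a median log2 fold change of -0.14. Insulin signalling had Igfbp1 as its 1 called member of 17 and a median of -0.02. Among secreted hepatokines 4 of 19 were called higher, Fgf21, Adm2, Igfbp1 and Igfbp2, and 0 lower, with a median of 0.10. Igfbp2, another binding protein of insulin-like growth factors, was at 145 to 355 CPM in controls (median 254) and 307 to 988 CPM in LKO livers (median 650). Its log2 fold change was 1.20 (SE 0.25, edgeR adjusted p = 0.0167), and 6 of the 8 LKO livers were above all controls.

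In the list of growth hormone and STAT5 genes, 2 of 16 were called higher, Igfbp1 and Igfbp2, and 1 lower, and the median log2 fold change was -0.06. The lower gene was Ghr, the growth hormone receptor, at 372 to 538 CPM in controls (median 449) and 128 to 444 CPM in LKO livers (median 226). Its log2 fold change was -0.82 (SE 0.20, edgeR adjusted p = 0.0440), and the call was lost in 11 of 16 fits without 1 library (highest edgeR adjusted p = 0.0899, without female CRE- 2). Female-biased liver genes had 0 of 16 called with a median of -0.38, and male-biased genes 0 of 18 with a median of 0.18. Within the sexes the medians of the female-biased list were 1.02 in males and -1.79 in females. Male LKO 1 stood out here, with 1207 CPM summed over the female-biased list, where the other male LKO livers were at 238, 223 and 295 CPM, and 1367 CPM over the male-biased list, where they were at 20433, 28182 and 23491 CPM. Leaving it out gave 1 called female-biased and 2 called male-biased genes, and leaving out female LKO 4 gave 1 called female-biased gene.

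Bile acid synthesis and transport had 1 of 25 members called higher and 1 lower, and a median log2 fold change of -0.08. Cyp39a1, which hydroxylates 24-hydroxycholesterol, was at 8.50 to 33.8 CPM in controls (median 17.7) and 43.6 to 139 CPM in LKO livers (median 68.3). No value overlapped, and the log2 fold change was 1.90 (SE 0.31, edgeR adjusted p = 0.00311), with 2.75 in males and 1.06 in females. Slc27a5, the bile acid CoA ligase, had medians of 1051 CPM in controls and 683 CPM in LKO livers, and a log2 fold change of -0.57 (SE 0.14, edgeR adjusted p = 0.0421). Its call was lost in 11 of the 16 fits without 1 library (highest edgeR adjusted p = 0.0922, without male CRE- 2). Cyp7a1, the rate-limiting enzyme of bile acid synthesis, was at 64.5 to 188 CPM (median 85.0) in controls and 8.77 to 125 CPM (median 84.3) in LKO livers.

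Hepatocytes near the portal vein and those near the central vein express different enzymes. Of 14 periportal genes 3 were called lower and 0 higher, with a median log2 fold change of -0.74 in the pooled fit and -0.71 within each sex. Summed over the list the controls held 10430 to 14425 CPM (median 11934) and the LKO livers 5406 to 13135 CPM (median 6745), where female LKO 2 was the LKO liver within the control range. Without female LKO 2 there were 5 called members and without male LKO 3 there were 6. Pigr, the receptor that carries immunoglobulin A into bile, fell from 1608 to 2151 CPM (median 1822) in controls to 838 to 1419 CPM (median 1117) in LKO livers, which did not overlap. This gave -0.74 on the log2 scale (SE 0.13, edgeR adjusted p = 0.00726). Aldh1b1, a mitochondrial aldehyde dehydrogenase, was at 85.6 to 189 CPM (median 110) against 17 to 91.5 CPM (median 46.1), a log2 fold change of -1.41 (SE 0.28, edgeR adjusted p = 0.0136), and was not called without both male CRE- 3 and female CRE- 4. Cyp2f2 was at 377 to 858 CPM (median 761) against 72.3 to 691 CPM (median 170), a log2 fold change of -1.56 (SE 0.39, edgeR adjusted p = 0.0492) whose call was lost in 14 of 16 fits without 1 library (highest edgeR adjusted p = 0.113, without female LKO 3). Of 14 pericentral genes 0 were called, and their median was 0.04. Glul, glutamine synthetase, had medians of 1281 CPM and 1353 CPM, with 5724 CPM in female LKO 4, and Cyp2e1 had 5373 CPM and 5102 CPM.

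Cytochrome P450 genes of drug metabolism had Cyp2f2 as the 1 called member of 35, or 2.86%, near the 2.02% of all genes tested. Their median log2 fold change was -0.18, with 0.48 in males and -0.61 in females. Cyp3a11, a major drug-metabolizing P450, was at 2075 to 3535 CPM in controls (median 2603) and 2345 to 6708 CPM in LKO livers (median 4502), a log2 fold change of 0.70 (SE 0.19, edgeR adjusted p = 0.0657). Carboxylesterases had 1 of 14 called lower, and a median of -0.40, with 0.20 in males and -0.78 in females. That gene was Ces3b, at 198, 252, 256 and 207 CPM in male CRE- livers and 49.3, 117, 145 and 173 CPM in male LKO livers. Female CRE- livers held 92.6, 124, 134 and 102 CPM and female LKO livers 6.29, 11.1, 17.7 and 13 CPM. In each sex the LKO livers were below the controls, and the female LKO livers were the lowest of all. On the log2 scale the common value was -2.07 (SE 0.39, edgeR adjusted p = 0.00948), but Ces3b was not called without the sex covariate. The list had 2 calls without male CRE- 1 or male LKO 2. Ces3b has a close paralog in the same cluster, and reads shared between copies make its value uncertain. Its promoter was among the 8 of lower genes that held a sterol response element, on the plus strand at chr8:105083557-105083605 of GRCm38.p6 by RefSeq. Genes named after their values were seen, and Slc23a1, Pstpip2, Arhgap26 and Gm15337, were not searched for stretches. Among the called genes that were searched it was the only such stretch, shown here with the match in capitals.
Ces3b: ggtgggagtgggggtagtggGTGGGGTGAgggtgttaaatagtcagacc

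Phase II conjugation had 0 of 39 members called and a median log2 fold change of -0.27, with 0.28 in males and -0.56 in females. It had 1 call without any of male CRE- 4, male LKO 2, female LKO 1 or female LKO 4. NRF2 targets, which respond to oxidative stress, had 2 of 15 called higher, Osgin1 and Slc7a11, and a median log2 fold change of 0.20. Osgin1, an oxidative stress-induced growth inhibitor, was at 86.6 to 188 CPM in controls (median 131) and 253 to 601 CPM in LKO livers (median 303). The genotypes did not overlap, and the log2 fold change was 1.55 (SE 0.22, edgeR adjusted p = 0.00112). Without male LKO 1 the list had 1 called member.

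Outside the lists, the higher genes with the smallest p whose values were apart in both sexes included several nearly silent in controls. Ren1, which encodes renin, had 4 reads over the 8 controls and 1444 over the LKO livers, with 4.62 to 10.6 CPM in male and 0.116 to 3.94 CPM in female LKO livers. The ligand gene Wnt10a had 16 reads in controls and 2458 in LKO livers, of which female LKO 2 had the most, at 31.1 CPM. Baalc, Baiap2l2 and Pcdh20 had 2 reads each in controls and 458, 578 and 326 in LKO livers. Their ratios were 242 (95% interval 66.7 to 2010), 306 (84.3 to 2530) and 173 (47.4 to 1430), intervals that cover counting error only. The predicted gene Gm29915 had 6 reads against 1342. For all of these genes but Gm29915, all 8 LKO livers were above all 8 controls.

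Genes with more reads in controls followed the same order. Wnk4, a kinase known for its control of renal ion transport, was at 0.214 to 1.72 CPM in controls (median 1.30) and 2.29 to 13.8 CPM in LKO livers (median 5.52), a log2 fold change of 2.33 (SE 0.34, edgeR adjusted p = 0.00124). Lhx6, a homeobox transcription factor gene, was at 2.75 to 8.74 CPM (median 7.16) against 12.3 to 21.6 CPM (median 16.6), with a log2 fold change of 1.40 (SE 0.20, edgeR adjusted p = 0.00112). Each of these separated the genotypes in full. Cyp4a31, of the fatty acid omega-hydroxylases, went from 1.20 to 7.92 CPM (median 4.49) to 6.33 to 47.1 CPM (median 15.8), a log2 fold change of 2.22 (SE 0.25, edgeR adjusted p = 0.00014). It belongs to a cluster of near copies, so that its reads are uncertain. App, the amyloid precursor protein gene, is among the 5 called higher genes of highest CPM, at 78.0 to 107 CPM in controls (median 84.5) and 126 to 222 CPM in LKO livers (median 138), with a log2 fold change of 0.80 (SE 0.13, edgeR adjusted p = 0.00330). No LKO liver was as low as a control for App.

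H19, an imprinted RNA that is abundant in fetal liver, was the 1 member called higher of 8 oncofetal and liver tumour genes tested, whose median log2 fold change was 1.27. Male CRE- livers were at 0.284, 0.579, 0.884 and 1.89 CPM and male LKO livers at 24.7, 2.29, 48.5 and 6.43 CPM. The female CRE- livers were at 6.81, 0.467, 0.575 and 2.51 CPM and the female LKO livers at 6.62, 150, 71.8 and 1775 CPM. LKO livers thus ranged widely, with the highest value in female LKO 4 and an overlap with controls in females. The pooled log2 fold change was 6.11 (SE 1.20, edgeR adjusted p = 0.0113), and 4.68 without female LKO 4. H19 was not called without both male CRE- 3 and female CRE- 4. The list had 2 called members without any of male CRE- 4, male LKO 2, female LKO 1 or female LKO 4.

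Among lower genes chosen in the same way, Dct, Acp3 and Pou2af2 moved the most. Dct, dopachrome tautomerase of pigment synthesis, was at 0.624 to 32.7 CPM in controls (median 8.60) and 0.0416 to 0.856 CPM in LKO livers (median 0.195). Its controls differed by sex, from 0.624 to 5.61 CPM in males and 11.6 to 32.7 CPM in females, and within each sex all LKO livers were lower. The pooled log2 fold change was -5.00 (SE 0.48, edgeR adjusted p = 3.76e-05). Acp3, an acid phosphatase, was at 10.6 to 74.3 CPM (median 18.9) against 0.376 to 3.44 CPM (median 0.996), a log2 fold change of -4.04 (SE 0.44, edgeR adjusted p = 9.65e-05). Pou2af2 had 984 reads over the controls and 62 over the LKO livers, and a log2 fold change of -3.99 (SE 0.54, edgeR adjusted p = 0.000712). Both Acp3 and Pou2af2 were lower in every LKO liver than in any control.

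Receptors, transporters and regulators were among the lower genes as well. Esr1, the estrogen receptor alpha gene, was at 21.4 to 57.2 CPM in controls (median 39.7) and 6.97 to 30.0 CPM in LKO livers (median 15.1), a log2 fold change of -1.33 (SE 0.18, edgeR adjusted p = 0.000772) with -1.33 in males and -1.32 in females. Only female LKO 1 overlapped the controls, and only the male ones, so that within each sex all LKO livers were lower. S1pr5, a sphingosine 1-phosphate receptor gene, was at 8.27 to 15.5 CPM (median 12.1) against 1.31 to 4.99 CPM (median 3.05), with a log2 fold change of -2.0 (SE 0.26). P2ry4, a nucleotide receptor gene, had a log2 fold change of -1.79 (SE 0.21), from a median of 14.9 CPM to 4.29 CPM. Fam83f had -2.57 (SE 0.31), from 5.14 CPM to 0.612 CPM, and Ntn3, a netrin gene, -1.43 (SE 0.18), from 8.17 CPM to 3.20 CPM. Of these 4 genes, P2ry4 alone had a single LKO liver within the control range, though below all controls of its sex, and the largest edgeR adjusted p was 0.000513.

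Slc23a1, Pstpip2, Arhgap26 and Gm15337 were also among the lower genes named by this rule. Slc23a1, a vitamin C transporter gene, was at 62.8 to 86.1 CPM in controls (median 74.6) and 16.4 to 48.4 CPM in LKO livers (median 31.7), a log2 fold change of -1.28 (SE 0.16, edgeR adjusted p = 0.00045). Pstpip2, an adaptor that binds membranes and actin regulators, was at 42.8 to 66.1 CPM (median 51.2) against 15.2 to 37.3 CPM (median 19.3), with a log2 fold change of -1.29 (SE 0.15, edgeR adjusted p = 0.00014). Arhgap26, a GTPase-activating protein gene, had a log2 fold change of -1.30 (SE 0.17), and the predicted gene Gm15337 had -2.55 (SE 0.33). In all 4 the genotypes were fully apart. Gm15337, from 39485230 to 39504477 on the minus strand, lies within the span of Arhgap26, from 38734531 to 39509338 on the plus strand. They share no exon bases, and the study's methods state that reads were counted by strand. Whether reads of Arhgap26 enter the count of Gm15337 was not tested.

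Among the called lower genes of highest CPM was Serpina1d, an antitrypsin gene, at 2053 to 4459 CPM in controls (median 3111) and 906 to 2094 CPM in LKO livers (median 1712). Its log2 fold change was -0.95 (SE 0.22, edgeR adjusted p = 0.0284), and the call was lost in 8 of the 16 fits without 1 library, with the highest edgeR adjusted p (0.0659) without female LKO 3. Near-identical members of its family share reads with it, and the split between them is uncertain. The others of this set, Scd1, Fasn, Pigr and Slc38a3, are given above.

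**Figure D2:**
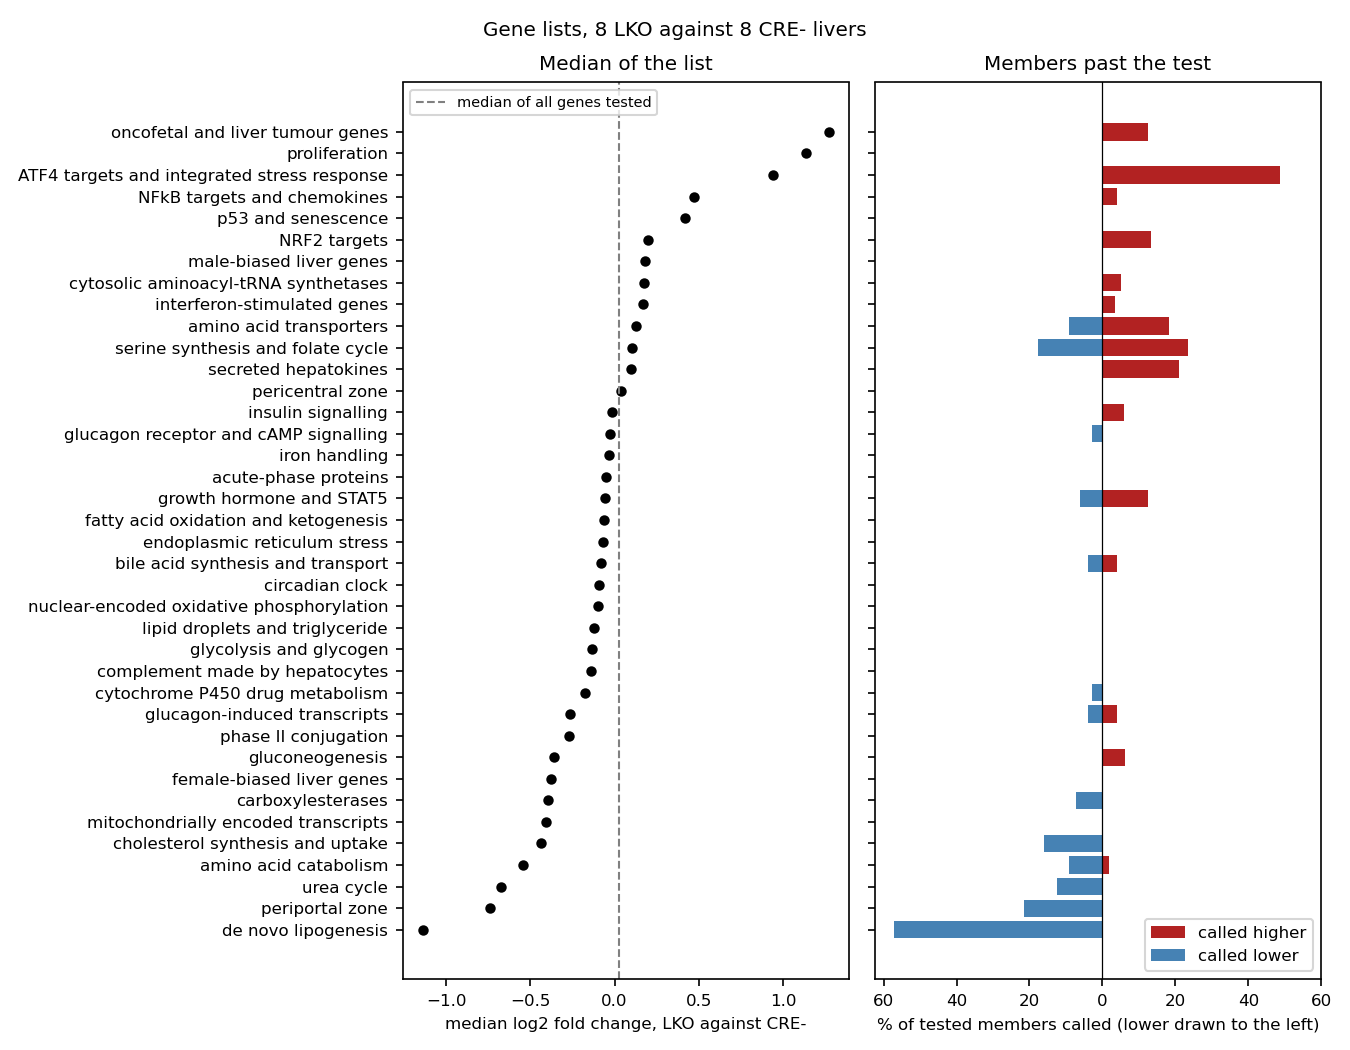
Members of the gene lists called between the genotypes and the median log2 fold change of each list, LKO minus CRE-, over its members tested. The ATF4 list has 17 of 35 members called higher and a median of 0.94, and de novo lipogenesis 12 of 21 called lower and a median of -1.14.

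Inflammatory genes were examined in 4 lists, beside 0.848% of all genes tested called higher and 1.18% lower. Of 28 interferon-stimulated genes 1 was called higher, Usp18, which removes ISG15 from proteins, and the median log2 fold change was 0.17. Usp18 was at 4.63 to 12.6 CPM in controls (median 8.89) and 9.27 to 27.2 CPM in LKO livers (median 17.1), with a log2 fold change of 0.97 (SE 0.24, edgeR adjusted p = 0.0472). Of 25 NFkB targets and chemokines tested 1 was called higher, Nfkbia, which encodes an inhibitor of NFkB, and the median was 0.47, with -0.11 in males and 0.96 in females. Nfkbia was at 28.8 to 49.9 CPM (median 44.9) against 47.6 to 87.5 CPM (median 61.4), a log2 fold change of 0.62 (SE 0.15, edgeR adjusted p = 0.0413). The Usp18 call was lost in 11 and the Nfkbia call in 12 of 16 fits without 1 library (highest edgeR adjusted p = 0.125 and 0.103, each without male LKO 1). Usp18 was also not called in a fit with the replicate number as a block. Acute-phase proteins had 0 of 22 called and a median of -0.05, with -0.37 in males and 0.61 in females, and complement genes of hepatocytes 0 of 19 and -0.14.

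Markers of other liver cells were given by their summed CPM in each liver, beside the results above. The 12 Kupffer cell markers, led by Cd5l, had 0 called and a median log2 fold change of 0.72. Their sums were 1119, 607, 316 and 1686 CPM in male CRE- livers, 1525, 850, 937 and 867 CPM in male LKO livers, 989, 740, 819 and 1627 CPM in female CRE- livers, and 4458, 1258, 2958 and 1774 CPM in female LKO livers. Female LKO 1 and 3 were thus the highest. The 12 markers of recruited macrophages, led by Lyz2, were at 121 to 582 CPM in controls (median 255) and 219 to 725 CPM in LKO livers (median 499), with 1 called higher and a median of 0.72. Within the sexes the medians were 0.17 in males and 1.34 in females for Kupffer cells, and -0.03 and 1.46 for recruited macrophages. The called gene was Cd9, at 14.9 to 29.0 CPM in controls (median 18.8) and 22.1 to 91.8 CPM in LKO livers (median 40.3), a log2 fold change of 1.12 (SE 0.25, edgeR adjusted p = 0.0245). That call was lost in 6 of the 16 fits without 1 library (highest edgeR adjusted p = 0.0652, without female CRE- 4), and 1 Kupffer cell marker was called without male CRE- 4. Among male LKO livers, male LKO 1 had the highest sum of Kupffer and recruited macrophage markers and the highest Asns, Psat1, Phgdh and Fgf21. Among female LKO livers, female LKO 4 had the highest sum of recruited macrophage markers, at 725 CPM, and the lowest values of these 4 genes. Female LKO 3 nearly equalled that sum, at 721 CPM, and had the highest values of these 4 genes. The part of these cells in the results was not tested.

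Neutrophil markers, led by S100a9, had 0 of 12 called and a median log2 fold change of 0.40, with -2.23 in males and 3.54 in females. Their sum was highest in female LKO 4 at 746 CPM and male CRE- 4 at 235 CPM. T and NK cell markers had 0 of 15 called and a median of 0.15, with 10.1 to 41.4 CPM in controls and 11.9 to 48.2 CPM in LKO livers. B and plasma cell markers had 0 of 8 and 0.38, erythroid markers 0 of 8 and -0.35, sinusoidal endothelial markers 0 of 12 and 0.16, stellate cell and fibroblast markers 0 of 14 and 0.10, and cholangiocyte markers 0 of 10 and 0.31. Ranges of the summed CPM of these 5 lists overlapped between the genotypes.

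Markers of pancreas, muscle and fat were high in single samples. The 8 pancreatic acinar markers, led by Cela2a, summed to 187 CPM in male CRE- 2 and 745 CPM in female CRE- 2. They summed to at most 2.53 CPM in the other 14 livers, so that those with high acinar sums were both controls. Skeletal muscle markers, led by Acta1, summed to 149 CPM in male LKO 3, 85.1 CPM in male LKO 4 and 32.3 CPM in female CRE- 4. Adipocyte markers, led by Cfd, reached 109 CPM in male LKO 2 and 90.4 CPM in male LKO 4. Among these lists 0 of 1 acinar, 0 of 7 muscle and 0 of 6 adipocyte markers tested were called, with medians of -4.79, 2.44 and 0.54. An acinar marker was called without male CRE- 3 and an adipocyte marker without male LKO 4. Where these transcripts came from, and their part in the results, was not tested, and leaving out each of these livers is among the fits given above.

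Proliferation genes had 0 of 15 called and a median log2 fold change of 1.14, with 0.28 in males and 1.92 in females. Their sums were 15.7 to 33.5 CPM in male CRE- livers, 18.3 to 30.5 CPM in male LKO livers, 14.1 to 29.7 CPM in female CRE- livers and 35.8 to 120.7 CPM in female LKO livers. Female LKO livers were hence the highest group, above all others. Leaving out male CRE- 1 gave 2 called genes, and leaving out male CRE- 3 or female LKO 2 gave 1. The p53 and senescence list had 0 of 12 called and a median of 0.42, with 1 called without female LKO 2. Respiratory chain genes of the nucleus had 0 of 63 and -0.10, with 0.27 in males and -0.49 in females, and the 13 mitochondrially encoded transcripts 0 called and -0.41. Clock genes had 0 of 19 called and a median of -0.09, and iron handling 0 of 14 and -0.03.

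Whether the genotype effect differed between the sexes was tested as an interaction over the same 16742 genes. EdgeR's quasi-likelihood test called 0 genes (0%), with 2672 at an unadjusted p under 0.05 and a smallest adjusted p of 0.104, while DESeq2's Wald test called 371, of which 266 were more positive in females and 105 more negative. The count from edgeR was 14 without male LKO 1 or without female LKO 3, 10 without female LKO 2, and 2 without male CRE- 2 or without female LKO 4. A common effect in the additive model is therefore not evidence that the sexes responded to the same extent. Among the genes of smallest p were Ltf and Gm33862, which were not called in the additive fit either. Ltf, lactoferrin of neutrophil granules, had a log2 fold change of -5.68 in males and 4.88 in females, and Gm33862 had -1.55 and 1.99. For Ltf the high values were in male CRE- 4 at 22.8 CPM and female LKO 4 at 46.4 CPM, the livers that also led the neutrophil markers.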

How the data were processed

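Poly-A selected liver RNA of 16 mice was sequenced as paired reads. The deposited table holds raw counts of reads per gene, which the authors made with STAR 2.7.1a on GRCm39 and featureCounts of Subread 2.0.6. It shows an excess of even counts (81.39% to 87.92% of counts from 1 to 20), as when both mates of a pair are counted, so reads are not independent and ratio intervals, which cover counting error alone, are too narrow. No sample was left out.

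In R 4.3.3, genes were filtered by filterByExpr (minimum count 10), which kept 16742 of 41079, scaled by TMM and fitted with edgeR 4.0.16 on sex and genotype. The quasi-likelihood test was adjusted by Benjamini and Hochberg's method. A joint fit of the 4 groups gave the values within each sex and the interaction. Fits with DESeq2 1.42.0 and limma 3.58.1, other scaling and filters, and fits without each library were tried, and 3 alternatives were added after seeing the data. The code was tested on simulated data.

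Named genes were Gcgr and Fgf21, the 15 called genes each way of smallest p whose genotypes were apart in both sexes, the 5 called genes each way of highest CPM, up to 5 called members of each of 51 lists, up to 2 most abundant members where fewer than 2 were called, the rate-limiting step of pathway lists, the 3 interaction genes of smallest p, and the most abundant gene of each marker list. Those not called are given in part, and some genes under this rule are not reported here. Members and lists were chosen with earlier results of these data known.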

Additional observations from a re-analysis of the deposited data

Results flagged for a closer look

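Among 412 groups of 4 livers tested, 50 had a liver far from the other 3 relative to the whole range. A chance rate of about 1 in 20 groups, or 20.6 of these, would hold for independent, normally distributed values. Whether CPM meet this was not tested. In some flagged groups, such as Baalc in female CRE- livers, only 1 liver had any reads, so its gap spans the whole range. The number flagged therefore cannot be weighed against that rate, and it does not measure an excess. Values are CPM unless stated.

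Male LKO 1 was high for Fgf21 (113.3, others at most 43.91), Adm2 (4.579), Psat1 (54.61), Baiap2l2 (1.543) and Slc7a11 (18.26, others at most 1.541), and low for Serpina1d (1156.0, others at least 1979.0). It was also high among male LKO livers for the summed markers of Kupffer cells (1525.0), recruited macrophages (532.2) and stellate cells and fibroblasts (557.0).

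Female LKO 4 was high for H19 (1775.0, others at most 150.3), Igfbp1 (728.3), Insig1 (436.1) and Glul (5724.0), and low for Aldh1l2 (0.2893). Female LKO 2 was high for Slc38a4 (827.6), Pck1 (2765.0, others at most 826.2), Cyp2f2 (223.5), Pcdh20 (2.294) and muscle markers (15.81). Female LKO 1 was high for Esr1 (30.01) and Slc7a5 (22.76) and low for acinar markers (0.5538). In the other male LKO livers, male LKO 2 was low for Igfbp2 (396.7) and high for Acaca (211.2), male LKO 3 was high for Pcdh20 (3.478) and Ass1 (1917.0), and male LKO 4 was high for Dct (0.2161).

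Among controls, male CRE- 3 was low for Gcgr (127.3, others at least 189.6) and Slc7a5 (1.144) and high for Arhgap26 (34.29). Male CRE- 4 was high for Fgf21 (2.495), Asns (0.854) and Wnt10a (0.0899), and male CRE- 2 for acinar markers (187.4), Baiap2l2 (0.04456) and Gm29915 (0.08911). Female CRE- 1 was high for Asns (1.907), Acp3 (74.3), Slc7a5 (6.188), Ltf (1.198), Adm2 (0.04436) and adipocyte markers (10.82). Female CRE- 2 was high for acinar markers (744.5), reads on genes (56488920), Baalc and Pcdh20 (0.03893 each), female CRE- 3 for Gm29915 (0.04789), and female CRE- 4 for Agxt (519.7) and Slc3a2 (74.09), with a low Aldh1l2 (0.05346).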

How the results depend on the processing

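The 339 calls between genotypes became 812 with DESeq2's Wald test, which shared 337 of them, and 827 with limma-voom and sample quality weights. They became 107 in males alone, 119 in females alone, 113 at an adjusted p under 0.01, 214 with a log2 change of at least 1, and 213 without both libraries of the highest share in the 10 most abundant genes, an alternative chosen after seeing the data. These 5 counts rest on fewer samples or a stricter rule by construction, and the cause of the DESeq2 and limma counts was not tested. Leaving out each library in turn gave 209 to 355 calls. No called gene changed sign where it was called again. Gcgr was called at -0.65 with DESeq2, at -0.58 with limma-voom and at -0.60 without both libraries farthest out on principal components 1 to 3, also chosen after seeing the data, and ranged from -0.73 to -0.52 when each library was left out. The interaction had 371 calls with DESeq2, 1 without both libraries of the highest share, and 0 to 14 without each library. Beyond calls that depend on single libraries, Csad, H19 and Aldh1b1 were not called without both libraries of the highest share, nor Agxt and Ces3b without the sex covariate. Halving all counts, the third alternative chosen after seeing the data, gave 367 calls.

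Replicate numbers are shared by the groups, and the labels mark them only as biological replicates, so they were not taken to pair the mice. Over 24 pairs with the same number the correlation ran from -0.25 to 0.33, 11 were over 0.1, among them 6 of the 8 between controls and LKO livers of the same sex, and a sample correlated best with its own number in 24 of 48 cases, where chance gives 12. Such a hint of shared numbers comes from the data and not from the design. A fit with the replicate number as a block called 315 genes and 0 interactions, and among named genes the calls of Pde4b, Gars1 and Usp18 were not made.

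With 4 mice per group single livers weigh heavily, and 17 of 68 named calls were lost in at least 1 fit without a library. Low counts limit genes nearly silent in a genotype, and bulk RNA limits statements on cell types.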
